A study of Rattus norvegicus with 6 samples.

Results

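The CpG sites described here lie in intergenic DNA far from any annotated gene start. They were chosen from an annotated table of 32674 nuclear CpG cytosines as those outside promoters, exons, introns, CpG islands and island shores whose nearest annotated transcript start is more than 100 kb and at most 500 kb away. The rule, which used annotation and no methylation value, gave 6528 sites, or 20% of the table. DNA came from dorsal root ganglia, which hold the cell bodies of sensory neurons together with Schwann cells, satellite glia and other cells, of male Sprague-Dawley rats aged 8 to 9 weeks and weighing about 220 g. In the SNL group (n = 3 libraries) spinal nerves on the left had been ligated, a model of neuropathic pain, and in the Sham group (n = 3 libraries) the opposite side had been operated on with no ligature; both were sampled 3 weeks after surgery. Nothing in the labels says which libraries come from separate animals, so an animal may have given a library to each group and the p-values speak only of how these libraries vary, in part perhaps for technical reasons. Each value is the percentage of bisulfite reads with C in place of T at a CpG of MspI fragments (reduced representation bisulfite sequencing, RRBS), and in bulk tissue a change in the cells' methylation and a change in the mix of cells cannot be told apart.

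In mammalian genomes most CpGs away from islands carry methylated cytosine, which is copied at each cell division by the maintenance methyltransferase Dnmt1. Distal enhancers are a known departure from this pattern, since bound transcription factors keep their CpGs at low or intermediate methylation, and such elements can act on genes far away. A nearest start therefore names a place in the genome and not the gene that a site acts on, and the files hold no expression values.

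Coverage summed over the listed cytosines, where a read counts once for each CpG it covers, was 31651277, 34293779 and 29420922 in SNL and 32243538, 31063811 and 27247702 in Sham. Coverage at the 6528 sites ran between 100 and 3434 reads per library, so the intervals of single percentages cover counting error only and depend strongly on the site. The promoters of neuronal, immune, endothelial and fibroblast marker genes held no site of the annotated table, and of 7 glial markers Erbb3 alone held 2, at 1.1% to 3.3% methylation in SNL and 1% to 4% in Sham, so cell composition was not tested here.

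The sites were not spread evenly. Of the 6528, 3496 lay upstream and 3032 downstream of their nearest start, at a median distance of 198.6 kb. They fell near 1883 genes or transcripts, of which 513 had a single site and 90 had 10 or more. The transcript NM_001107413 had 22 sites, Zfp516, a zinc finger gene, had 21 and Prickle1, a planar cell polarity gene, had 20. No site of these 3 was called, but with 1.23% of the 6528 called this says little. Because MspI fragments are read from their ends, 2441 sites lay within 50 bp of the previous one, where the 50-base reads can cover both. Merging sites within 1000 bp left 3907 loci.

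Most of these sites were highly methylated. Averaged over the 6 libraries, 4088 sites (62.6%) were above 80% methylation, 2151 (33%) were between 20% and 80%, and 289 (4.43%) were below 20%. Over all annotated sites the share below 20% was 15.5%, and in promoters, gene bodies, islands and shores together it was 28.6%. Some of the low sites shared a nearest gene. Near Selenop, which encodes the selenium transport protein selenoprotein P, 14 low sites between 159 and 183.6 kb away averaged 5.3% in SNL and 5.8% in Sham. Near Mn1, a transcriptional coregulator gene, 8 low sites averaged 3.7% in SNL and 3.6% in Sham. They lay at distances between 156 and 485.2 kb and so not all together. Near Lhx5, a LIM homeobox gene, 6 low sites between 187.1 and 253.2 kb away averaged 11.4% in SNL and 10.9% in Sham. These averages leave out any site near the same gene at 20% or above, so they are low by construction. None of the 289 low sites was called different between the groups. The share called among all annotated sites below 20% is not given here, so this cannot be read as a trait of these sites.

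The mean methylation of the 6528 sites was 77.39%, 76.06% and 75.67% in SNL libraries 1 to 3 and 77.13%, 77.75% and 78.06% in Sham libraries 1 to 3. SNL averaged 76.37% ± 0.9 and Sham 77.65% ± 0.48 (SD, n = 3 each), a difference of -1.27 percentage points. The groups overlapped, because SNL 1 was above Sham 1. No p-value is given for this mean. The point estimate was lower in SNL at 66.8% of these sites, against 61.3% of all annotated sites.

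The gap was wider farther from a start. Between 100 and 200 kb (3303 sites) SNL averaged 75.82% and Sham 76.89%, a difference of -1.07 points. Between 200 and 300 kb (1541 sites) the difference was -1.39 points, and between 300 and 400 kb (987 sites) it was -1.48 points. Between 400 and 500 kb (697 sites) it was -1.71 points, and there all 3 SNL libraries, at 77.56%, 76.13% and 75.91%, lay below all 3 Sham libraries, at 78.02%, 77.97% and 78.75%. Intergenic sites nearer than 20 kb differed by -1 point and those beyond 500 kb by -1.96 points, while sites in promoters, gene bodies, islands and shores differed by -0.51 points. These are means over libraries with no test of the trend, and the mix of methylation levels, which also changes with distance, was not held fixed.

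**Figure D1:**
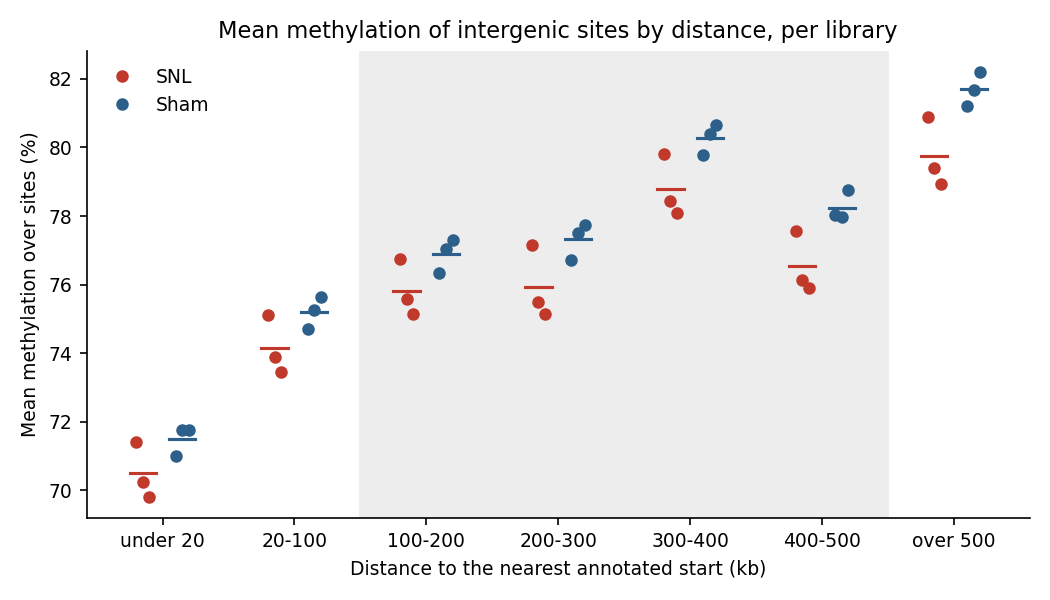
Mean methylation (%, vertical axis, which does not start at 0) of intergenic sites in 7 ranges of distance to the nearest annotated start (kb), with 1 point per library, SNL left of Sham, and lines at the group means. The shaded ranges are the 6528 sites. SNL 1 overlaps Sham in every shaded range except 400 to 500 kb.

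The difference also depended on the level of the site. Sites below 20% averaged 9.21% in SNL and 9.4% in Sham. Those between 60% and 80% (1312 sites) averaged 70.95% in SNL and 72.94% in Sham, a difference of -1.99 points, and those between 80% and 90% (1759 sites) differed by -1.72 points. Sites above 90% (2329 sites) averaged 93.82% in SNL and 94.59% in Sham. Of the called sites described next, 60 of 80 (75%) had an intermediate level of 20% to 80%.

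Each annotated site was tested by a logistic regression of its methylated and unmethylated reads on group, with overdispersion moderated across the whole table by limma, and p-values were adjusted by Benjamini-Hochberg over all 32674 sites. At an adjusted p under 0.05, 80 of the 6528 sites were called (1.23%), against 1.22% of all annotated sites, so the share called is that of the table as a whole. Of these, 69 fell in SNL (1.06%, against 1.05% in the table) and 11 rose (0.169%, against 0.174%). The falls had a median of -10 points and ranged between -5.1 and -25.6 points. The rises had a median of 10.3 points and ranged between 6.6 and 16 points. A change of at least 10 points was seen at 40 of them (0.613%, against 0.783% in the table). The groups did not overlap at any of the 80 called sites, while they did not overlap at 1267 of the 6528 sites (19.4%, against 17.8% in the table). In the authors' deposited table, 359 of the 6528 sites had a q-value under 0.05 (5.5%, against 4.54% in that table), and 79 of the 80 called sites were among them.

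How many sites were called depended on single libraries and on scaling. Leaving out Sham 3 left 11 called falls and no rise. Over all 32674 annotated sites it left 98 calls, against 400 with all 6 libraries. With an offset for each library's overall level there were 39 falls and 19 rises, so that 67.2% of calls were falls in place of 86.2%. The offset left 353 calls over all annotated sites. With an unmoderated F test, and with limma on logit values, none of the 6528 sites and no other annotated site was called. Of the 6528, 470 (7.2%) and 747 (11.4%) had an unadjusted p under 0.05 with these tests. With the moderated test it was 982 (15%), against 13.1% of all annotated sites. For the other tests the share over all annotated sites is not given here.

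**Figure D2:**
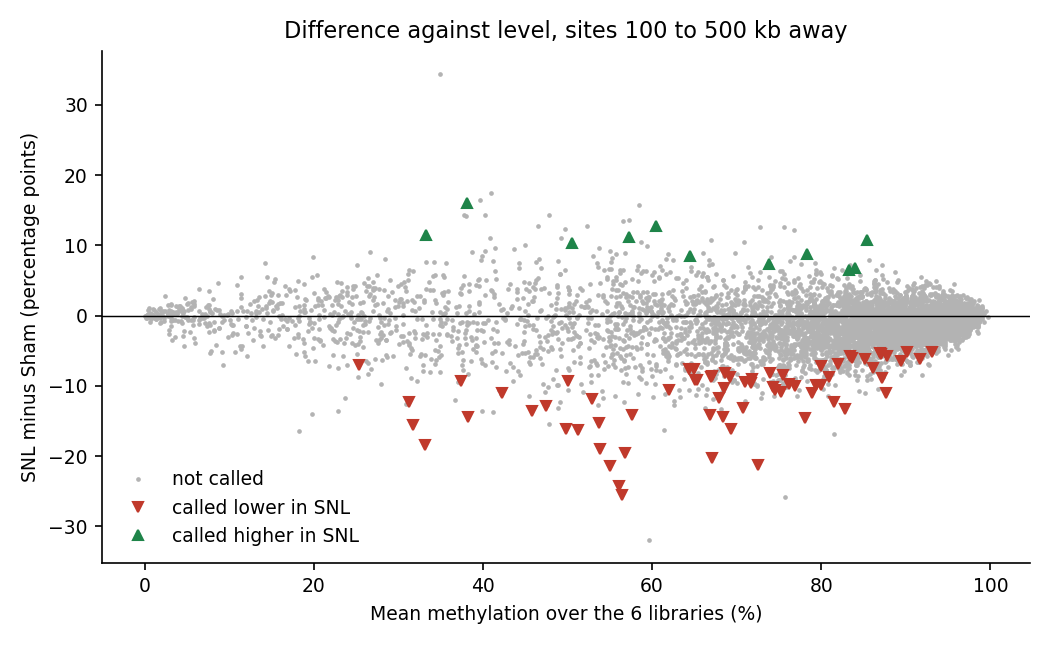
SNL minus Sham (percentage points, vertical axis) against mean methylation over the 6 libraries (%, horizontal axis) for each of the 6528 sites. Red triangles are the 69 called falls, green triangles the 11 called rises and grey points the rest. Called sites lie mainly between 20% and 90%, and 3 grey points lie beyond 20 points because single libraries differ within a group.

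The falls and rises named below were chosen from called sites whose groups do not overlap, so the lack of overlap at each is no further support. Among the falls, the sites nearest genes of growth factor and stress signalling had the following values. Upstream of Tgfbr2, the type II receptor for transforming growth factor beta, the site at position 121171389 of rat chromosome 8 (rn4), -490.9 kb from the start, was methylated at 61.7%, 60% and 63.8% in SNL, against 81.9%, 83.4% and 83.9% in Sham. The difference was -21.3 points (SE 1.2, adjusted p = 1.89e-05). The SNL libraries were all lower than the Sham libraries by more than the spread within either group.

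Upstream of Map3k7, the kinase TAK1 that acts below receptors for transforming growth factor beta and interleukin 1, a site -316.9 kb from the start had 59.4%, 60% and 64.3% in SNL and 77.8%, 74.1% and 80.2% in Sham, a difference of -16.1 points (SE 2.3, adjusted p = 0.0181). Upstream of Rasa1, a GTPase-activating protein that turns Ras off, a site at position 14510623 of chromosome 2 had 37.2%, 50.6% and 44% in SNL and 68.3%, 61.6% and 74.5% in Sham, a difference of -24.2 points (SE 5.4, adjusted p = 0.00778). Its libraries were spread more widely within each group than those of Tgfbr2, though the groups did not overlap. Downstream of Gadd45g, a gene induced by growth arrest and DNA damage, a site at 212.9 kb averaged 43.1% ± 3.3 in SNL and 59.3% ± 3.8 in Sham (adjusted p = 0.0183). When each of the 6 libraries was left out in turn, the calls near Map3k7 and Gadd45g were each kept in 3 of 6 cases.

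Upstream of Cxcr4, the receptor of the chemokine Cxcl12, the site at position 41725639 of chromosome 13, -413.4 kb from the start, had 27.8%, 22% and 22% in SNL, against 41.4%, 41.6% and 44% in Sham. The fall of 18.4 points (SE 2.1, adjusted p = 6.70e-05) was measured with between 384 and 575 reads per library. Upstream of Hif1a, the oxygen-regulated transcription factor, a site at -131.9 kb had 46.3%, 47.1% and 44.8% in SNL and 61.1%, 59% and 64% in Sham, a difference of -15.3 points (adjusted p = 0.015). In both cases the SNL libraries were all below the Sham libraries, which the choice of sites requires.

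Downstream of Acap2, a GTPase-activating protein of Arf proteins, the site at position 71672008 of chromosome 11 had 58.1%, 57.8% and 55.1% in SNL and 74.6%, 78.4% and 78.7% in Sham, a difference of -20.2 points (SE 1.6, adjusted p = 0.000136). Downstream of Disc1, a neuronal scaffold protein gene, the site at position 55467926 of chromosome 19 had 52.3%, 45.5% and 43.3% in SNL and 63.9%, 70.9% and 65.2% in Sham, a difference of -19.6 points (SE 3.5, adjusted p = 0.00105). The other named falls were near Pde6h, the inhibitory subunit of the cone phosphodiesterase, Tsen15, a subunit of the transfer RNA splicing endonuclease, Hspa4l, a chaperone, and Pabpc6. They ranged between -19 and -14.6 points, with adjusted p between 0.00542 and 0.0468. The calls near Tsen15 and Hspa4l were lost with the library offset (adjusted p = 0.0625 and 0.0564) and kept in 1 of the 6 leave-outs, and that near Pde6h was kept in 2 of 6.

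The rises were fewer. Upstream of Krr1, a ribosome assembly factor, a site at -257.6 kb had 70.9%, 65.3% and 64.2% in SNL and 56.3%, 52.3% and 53.7% in Sham, a difference of 12.7 points (SE 2.4, adjusted p = 0.00949). Upstream of Nmt2, an N-myristoyltransferase, a site at -155 kb had 61.3%, 63.9% and 63.3% in SNL and 50.6%, 55.1% and 49.3% in Sham, a difference of 11.2 points (SE 1.9, adjusted p = 0.0106). Both sites were higher in every SNL library than in any Sham library, which the choice of sites requires.

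Upstream of Runx1, a transcription factor of blood formation that also specifies classes of sensory neuron, a site at -375.6 kb had 42.5%, 37% and 37.6% in SNL and 24.5%, 29.4% and 28.8% in Sham, a difference of 11.5 points (SE 2.3, adjusted p = 0.0331). This call was lost when any 1 of the 6 libraries was left out, as was that of the site near Ldhal6b, a lactate dehydrogenase-like gene. Downstream of Larp7, which binds the 7SK RNA, a site had 50%, 44.4% and 43.8% in SNL and 30.2%, 39.1% and 21.1% in Sham, the largest called rise at 16 points (SE 5.5, adjusted p = 0.049), with a wide spread in Sham. It was kept in 1 of the 6 leave-outs, with a difference of 11.5 points and an adjusted p of 0.295 without Sham 3, and its q-value in the authors' deposited table was 0.0747. The remaining named rises were near Ankrd55, Tubd1, Rpl38 and Golga4, at between 6.8 and 10.8 points. Of the 6 leave-outs, the call near Ankrd55 was kept in 2, that near Tubd1 in 3, and those near Rpl38 and Golga4 in 1 each.

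**Figure D3:**
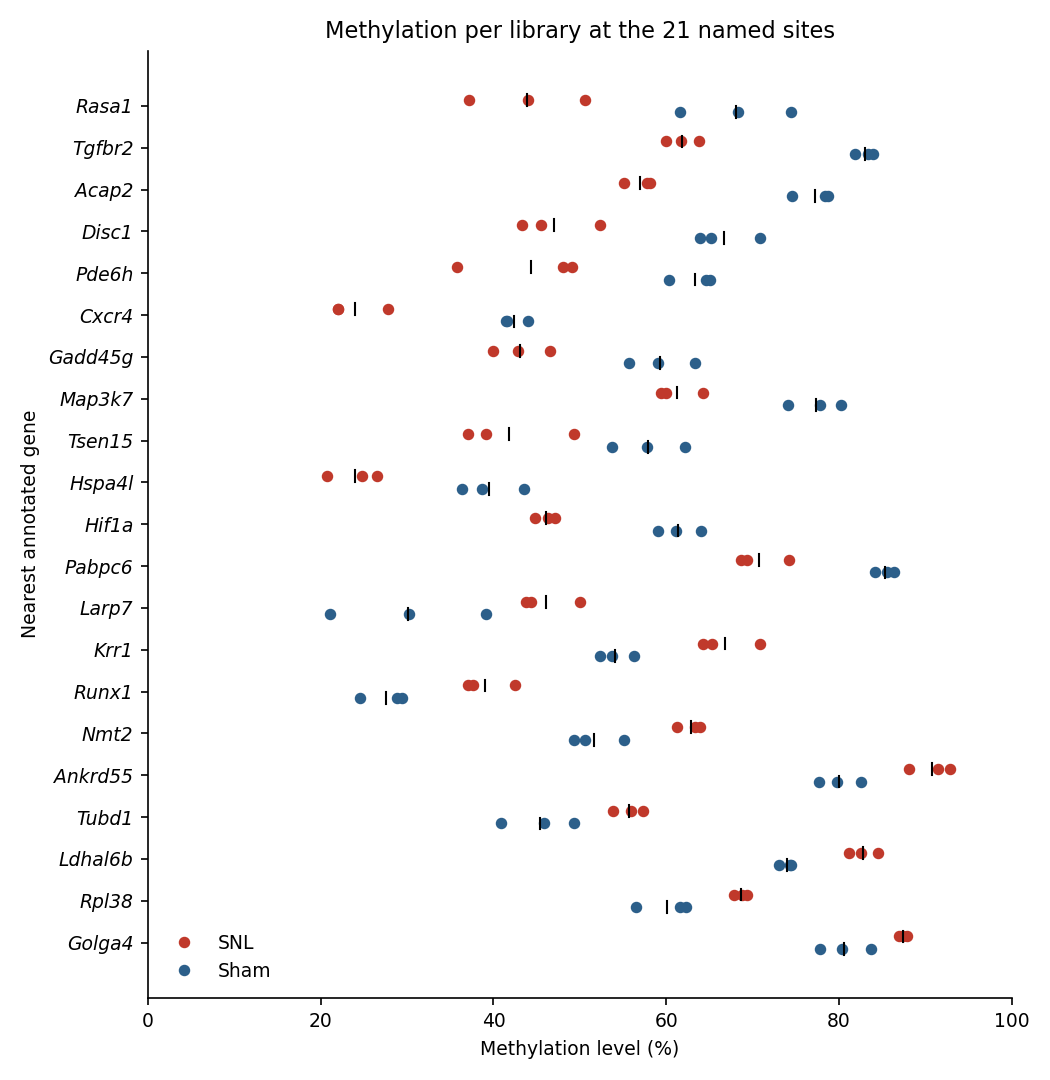
Methylation level (%) in each library at the 21 named sites, labelled by nearest gene, with SNL above Sham in each row and a short line at each group mean. The upper 12 rows are falls and the lower 9 rises, and the groups do not overlap in any row because the sites were chosen so.

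Without each of the 6 libraries in turn, 7 sites were called every time and all 7 were falls. The matching count over all annotated sites is not given here, so the 7 cannot be set against that share. They lay near Tgfbr2, Acap2 (2 sites), Disc1, Cxcr4, Cradd, an adaptor protein of cell death signalling, and Sorl1, a sorting receptor. The site near Cradd fell by 14.5 points and that near Sorl1 by 9.9 points.

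Neighbours within a read length of a called site mostly differed in its direction. Of 60 neighbours within 50 bp, each counted once with its closest called site, 58 had the same direction, with a median difference of 5.4 points towards it. Such neighbours can be read from the same DNA molecules and are not independent. At 51 to 1000 bp neighbours lie beyond the reach of a read and were required to have 20 reads in all 6 libraries. There 81 of 114 neighbours (71.1%) had the same direction, with a median of 2.8 points. For the falls alone this was 67 of 89 neighbours (75.3%), and for the rises 14 of 25 (56%). A lower point estimate was seen in any case at 66.8% of the 6528 sites. It was seen at 56.8% of all sites with 20 reads in all 6 libraries. Neither set matches the neighbours in both distance and depth. None of the 114 was called, but most were not among the annotated sites tested and so could not be called. The lack of calls therefore does not show that a change stops at the called site.

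Next to the Acap2 site, a CpG 15 bp away had 44.3% in SNL and 65.7% in Sham, while CpGs 114 bp and 91 bp away on the other side had 93.2% and 91.7% in SNL and 96.8% and 94.9% in Sham. Near the Tgfbr2 site, the closest measured neighbour, 112 bp away, had 78.6% in SNL and 84.6% in Sham, and CpGs at 122 and 149 bp differed by -0.5 and -1.2 points. These neighbours were read between 24 and 31 times in their shallowest library, so differences of a few points were not detectable there. Near Rpl38, which encodes a ribosomal protein, neighbouring positions 104145468 and 104145469 of chromosome 10, which may be the paired cytosines of a single CpG, had 77.4% and 79.1% in SNL and 70.1% and 66.4% in Sham, so both were higher in SNL, the first alone being called (adjusted p = 0.0381).

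**Figure D4:**
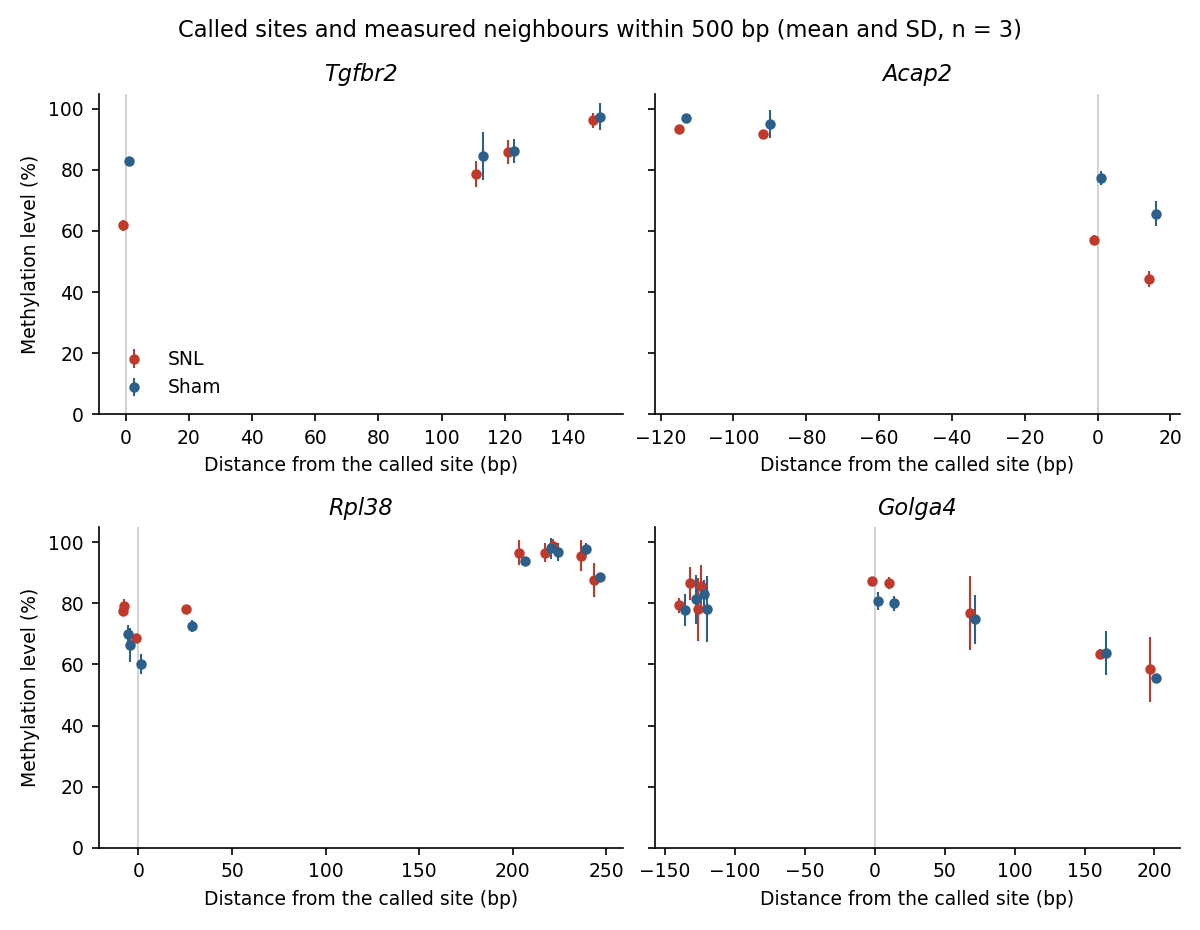
Methylation level (%) of 4 called sites (at 0 bp) and of measured CpGs within 500 bp of them, as the mean of 3 libraries with SD bars, SNL drawn left of Sham. At Tgfbr2 and Acap2 the groups are far apart at the called site and close at neighbours beyond 90 bp, and at Rpl38 and Golga4 SNL is higher at the called sites.

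Summing reads over windows of 1000 bp with 3 or more CpGs put 1561 windows with at least 1 of these sites among 29759 tested. Of the 1561, 18 were called (1.15%, against 0.595% of all windows), with 16 lower in SNL (1.02%, against 0.497%) and 2 higher (0.128%, against 0.0974%). Windows with these sites are deeper than most, since each holds a CpG with 100 reads in all libraries. Of the 8120 windows that hold any annotated site, 1.17% were called, so the share is again that of the table. A called site lay in 16 of the 18, so most window calls restate a site call. The window near Rasa1 averaged 45.5% ± 6.2 in SNL and 65.3% ± 4.8 in Sham (adjusted p = 0.0107), that near Pde6h 38.4% ± 6.6 in SNL and 55.3% ± 3.3 in Sham, and that near Tgfbr2 68.7% ± 1.2 in SNL and 84.8% ± 0.5 in Sham. Both windows called higher, near Rpl38 and Golga4, a Golgi tethering protein gene, rose by 6.9 and 5.8 points. The 2 called windows with no called site were near Ntm, a neuronal adhesion gene, and Mitf, a transcription factor gene. The Mitf window, with 9 CpGs, averaged 81.7% ± 0.9 in SNL and 87.2% ± 0.9 in Sham (adjusted p = 0.0326). Leaving out Sham 3 left 3 called windows, all lower.

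Read depth moved with the calls. Among sites with a mean of 100 to 150 reads per library 0.4% were called, and among the 822 sites with 500 or more 4.01% were called, against 0.528% and 2.9% of all annotated sites in the same ranges. The spread in percentage points was smaller at deep sites, but its excess over counting error was larger: the median Pearson dispersion, the ratio of the observed to the counting variance, was 1.1 below 150 reads and 2.01 at 1000 reads or more over the whole table. The test therefore let the expected dispersion follow coverage. With a single expected dispersion for all sites, 98 sites would be called, 75 of them shared with the 80, and the extra calls were at deep sites, with 26 in place of 15 calls at 1000 reads or more.

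**Figure D5:**
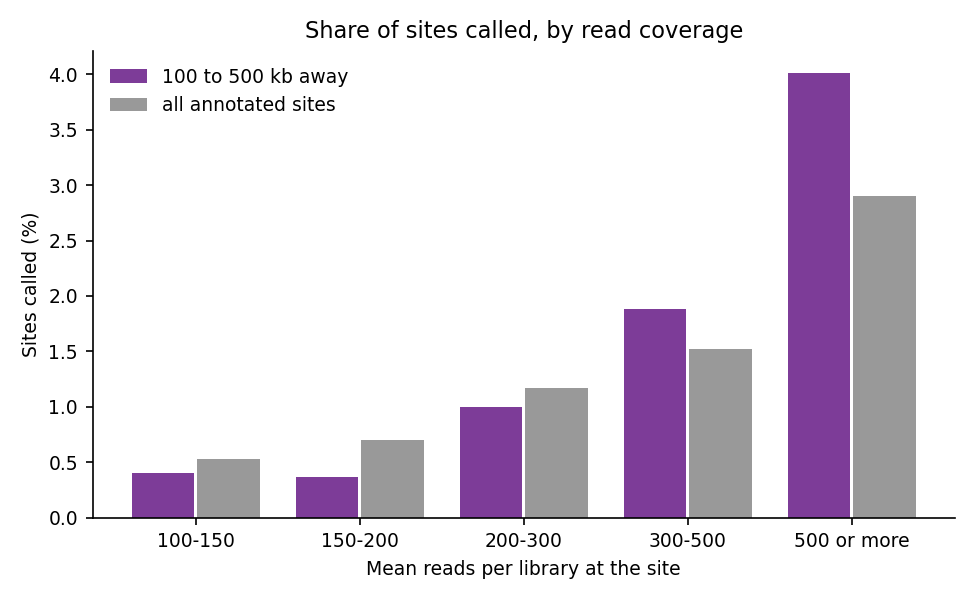
Share of sites called (%, vertical axis starting at 0) by mean reads per library at the site, for sites 100 to 500 kb away (purple, left) and all annotated sites (grey, right). The share reaches 4.01% and 2.9% at 500 reads or more.

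By nearest start, 60 developmental transcription factor genes had 316 sites, of which 3 fell and 1 rose (1.27%). The falls named near genes of this list were at 349.3 kb from Maf, a factor of touch receptor neurons, with 36.7% ± 1.8 in SNL and 47.7% ± 3.3 in Sham (adjusted p = 0.0156), and at 486.7 kb from Sox2, a factor of progenitor and glial cells, with 50.6% ± 1.7 in SNL and 64.7% ± 2.7 in Sham (adjusted p = 0.0186). The rise is the Runx1 site. The median difference over the 316 sites was -1.09 points, against -0.99 points over all 6528.

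The other lists are short, and 1.23% called over the 6528 sites amounts to about 1 call or fewer in most of them, so their counts say little. Of 120 sites near 25 neuronal and synaptic adhesion genes 1 was called (0.833%), near Cntn3, a contactin, with 69.8% in SNL and 80.7% in Sham (adjusted p = 0.0382). Of 65 sites near 17 axon guidance genes 1 was called (1.54%), near Dcc, a netrin receptor, with 69.3% in SNL and 79.4% in Sham (adjusted p = 0.041). Of 50 sites near 16 cadherin genes 1 was called (2%), near Cdh10, with 76.6% in SNL and 85.4% in Sham (adjusted p = 0.00491). Each of these calls was a fall. None of 52 sites near 17 ion channel genes, 58 sites near 24 neurotransmitter receptor genes or 32 sites near 15 olfactory and vomeronasal receptor genes was called.

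Sites near neurotransmitter receptor genes averaged 83.64%, 82.49% and 81.19% in SNL and 84.48%, 85.46% and 85.56% in Sham, so that the groups did not overlap, and 91.4% of the 58 sites had a lower point estimate in SNL, against 66.8% of all 6528. The median difference was -2.54 points. The group means also did not overlap between libraries for the adhesion genes, with 83.14%, 82.17% and 81.82% in SNL and 84.19%, 84.61% and 85.14% in Sham and 80% of sites lower. For the axon guidance genes they were 75.66%, 74.96% and 74.56% in SNL and 76.73%, 76.91% and 77.42% in Sham, with 78.5% of sites lower, and for the cadherins 79.73%, 79.02% and 78.58% in SNL and 81.1%, 81.8% and 81.16% in Sham, with 82% lower. The other 4 lists overlapped. Library means also did not overlap at all sites 400 to 500 kb away (73.2% lower) and at those beyond 500 kb (75.4% lower). The mix of levels and distances in the lists was not held fixed. Of the neurotransmitter receptor sites 77.6% were above 80% methylation, against 62.6% of all 6528. Among the neurotransmitter receptor sites the lowest p was near Grm3, a metabotropic glutamate receptor. That site had 59.7% ± 2.1 in SNL and 72.9% ± 3.2 in Sham and was not called (adjusted p = 0.0597). Near Cacna2d1, which encodes a calcium channel subunit and gabapentin target, a site had 79.1% ± 2.7 in SNL and 84.7% ± 0.3 in Sham and was not called (adjusted p = 0.0729).

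Of 56 sites near 14 genes of nerve injury and regeneration, 1 was called. It lay 351.2 kb downstream of the start of Gfra1, the receptor that binds the glial growth factor Gdnf, and had 69.4%, 65.2% and 64.2% in SNL and 76.9%, 73.3% and 76.9% in Sham (adjusted p = 0.0138). The point estimate was lower in SNL at 57.1% of the 56 sites, with a median difference of -0.27 points.

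Promoters of the genes near called sites were mostly not measured. Of 71 genes or transcripts with a called site, 5 had a promoter site in the table, 13 sites in all, and none of the 13 was called. At the Krr1 promoter 5 sites were between 1% and 6.1% in SNL and between 1.3% and 6.6% in Sham, at the Runx1 promoter 1 site had 2.7% in SNL and 3.3% in Sham, and 2 sites at the promoter of St8sia4, a sialyltransferase, had 3.6% and 7% in SNL and 5% and 6.5% in Sham. At the promoter of Prim2, a DNA primase subunit, 4 sites had 51.3%, 76.8%, 64.1% and 48.8% in SNL and 57.9%, 77.8%, 69.9% and 49.9% in Sham. At the Mindy3 promoter 1 site had 75.1% in SNL and 77.9% in Sham.

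At 3 sites the group means differed by more than 20 points without a call. Near Dok5, an adaptor protein gene, a site had 1%, 46% and 84.2% in SNL and 92.7%, 50.6% and 83.6% in Sham. Near the transcript NM_001047935 a site had 99.1%, 1.4% and 55.9% in SNL and 52.8%, 0% and 0.5% in Sham. Near Lrrtm4, a synaptic adhesion gene, SNL 1 had 10% where the other 5 libraries had between 86.4% and 92.1%. The libraries within a group differed at these sites by more than the groups did. At the Dok5 and NM_001047935 sites SNL 2 was close to Sham 2, and SNL 3 to Sham 1. Sham 3 was also close to SNL 3 at the Dok5 site and to SNL 2 at the other. Whether such libraries share an animal was not tested, and the main test used no pairing. A span of more than 30 points within a group was seen at 30 of the 6528 sites (0.46%, against 0.291% of the table) and at none of the called ones.

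At the edges of the distance rule, the sites just inside 100 kb, near Rfc3 and Ptgr3, averaged 20.9% and 94.7% in SNL and 29.6% and 93.6% in Sham. Those just outside, near Ptgr3 and Tfap4, averaged 94.8% and 95.8% in SNL and 95.6% and 95% in Sham. At 500 kb the sites just inside, near C5h1orf174 and Khdrbs2, averaged 93.2% and 90.6% in SNL and 93.2% and 91.2% in Sham, and those just outside, both near C5h1orf174, averaged 89.8% and 79.6% in SNL and 88.2% and 80% in Sham.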

How the data were processed

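The submitters' processing notes list Bismark 0.18.1, Bowtie2, methylKit 1.3.3 and the rat build rn4, while the labels' protocol text names a human one. Coordinates are given as listed, as rn4. The deposited per-library files give, per the file headers, a count of reads over each cytosine and what percent of them had C or T. The deposited table gives the percent in each library, a p-value and a q-value from the authors, and the distance to the nearest transcript start; every site in it has 100 reads or more in all 6 libraries. Strand is listed as F for every cytosine, so it does not tell the DNA strands apart.

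Methylated counts were recovered as coverage times percent. The logistic test used Pearson overdispersion on 4 residual degrees of freedom, moderated by limma's squeezeVar with a floor of 1, and a two-sided F test with Benjamini-Hochberg adjustment. The prior was first a single value. On simulated data that version made excess false calls at deep sites, so the prior was made to follow coverage, after the counts from the single value had been seen. The single value is kept as an added alternative. Where the simulated dispersion varied between sites, the version used still made more false calls than the nominal share, so calls just under the threshold are less certain than their adjusted p. Gene symbols came from RefSeq's GRCr8 gene table by accession (1759 of the 1892 transcripts nearest these sites).

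The sites named are the 12 largest falls and up to 12 largest rises among called sites whose groups do not overlap, 1 per gene, plus up to 3 genes per list with the lowest p. The sites at Dok5, NM_001047935 and those near Selenop, Mn1 and Lhx5, as well as the 4 regions drawn, were picked after their values were seen. The members and lists were chosen with earlier results of these data known. Alternatives were the offset, replicate block, other tests, coverage minimums, window sizes and leaving out each library. The tests ran in R 4.3.3 with limma 3.58.1 and data.table (version 1.17.8). Tables and plots were made in Python 3.11.15 using numpy 2.4.6, pandas 2.3.3 and, for the plots, matplotlib 3.10.9.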

Additional observations from a re-analysis of the deposited data

How the results depend on the processing

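The mean difference of -1.27 points stayed negative with pooled reads (-1.42), a coverage minimum of 200 (-1.34) and the median over sites (-1.75). Without each library in turn it was between -1.78 and -0.92 points. The library offset, which takes out a library's overall level, was not applied to this mean. Taken by replicate number, the differences were 0.26, -1.69 and -2.4 points. Counts of called sites moved more. The main test called 69 falls and 11 rises. A library offset gave 39 falls and 19 rises. An unmoderated F test and limma on logit values gave 0 falls and 0 rises, and likewise 0 called windows in either direction. With these tests 163 (10.4%) and 117 (7.5%) of the 1561 windows had an unadjusted p under 0.05, against 280 (17.9%) with the moderated test. The shares over all windows are not given here. Taking all sites with 20 reads or more gave 75 falls and 19 rises, and 1 site per 1000 bp gave 56 falls and 7 rises. Asking for at least 10 points left 34 falls and 6 rises. Without each library in turn there were between 11 and 89 falls and between 0 and 8 rises, and among windows (16 lower and 2 higher) between 3 and 23 lower and between 0 and 3 higher. The counts were smallest without Sham 3. So were those over all annotated sites, with between 98 and 444 calls without each library in turn, against 400 with all 6. The single prior, an alternative chosen after seeing the data, gave 28 lower windows. The cause of these moves was not tested, except that leaving out a library or asking for 10 points removes data by construction. No named site changed direction with the library offset. The other alternatives could not have reversed one. The groups do not overlap at named sites, so leaving out 1 library cannot change the sign, and the other tests used the same difference.

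The replicate numbers matched the libraries in part only: the deviations of same-numbered libraries correlated at -0.05, 0.26 and -0.14. SNL 2 correlated best with Sham 2, and SNL 3 with Sham 1, at 0.34. Whether these libraries share an animal was not tested. The main test used no pairing, and the replicate block goes by the numbers, so it does not join SNL 3 to Sham 1. With the replicate block there were 43 called falls and 8 rises, and 296 calls over all annotated sites. With it 6 of the 21 named sites lost their call, against 2 with the library offset.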
